A study of Mus musculus with 12 samples.

Results

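Malat1 and Neat1 are neighbouring genes on mouse chromosome 19, and both make long non-coding RNAs that stay in the nucleus. Their m6A signal was taken by position alone from tables that hold no gene names. A Malat1 row lay wholly within chr19:5845000-5853500 and a Neat1 row wholly within chr19:5874000-5896500, on GRCm39. These windows held 4 of the 74299 m6A intervals, 2 at each gene, and 42 of the 4929385 annotated repeat loci, 3 at Malat1 and 39 at Neat1. No further row crossed the edge of a window, since rows that only overlapped the windows gave the same members.

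The study profiled N6-methyladenosine (m6A) by immunoprecipitation of fragmented chromatin-associated RNA in E14TG2a, a line of mouse embryonic stem cells. The cells were grown with LIF and the inhibitors PD0325901 and CHIR99021, and RNA was depleted of ribosomal RNA before fragmentation. There were 3 genotypes: wild type (WT), Alkbh5 knockout (Alkbh5-/-, KO) and Alkbh5 del-cIDR (ΔcIDR), a deletion of a part of the protein that the series title links to intrinsically disordered regions. Each genotype had 2 replicates, giving 12 samples with their inputs, and 6 columns were read as the immunoprecipitated libraries. How the mutant lines were made and whether each is a single clone was not given in the sources used here. Both KO columns carry the name KO6, so both may come from 1 line, and nothing states that replicates came from separate cultures. P-values therefore measure the spread between these libraries, which may be technical.

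Malat1 is among the most abundant nuclear RNAs of mammalian cells and gathers in nuclear speckles, bodies rich in splicing factors. Neat1 is the scaffold of paraspeckles, and its short and long isoforms start at the same site, with the long form running on well past the end of the short one. Both genes are transcribed towards lower coordinates. m6A is laid down by the METTL3-METTL14 complex while RNA is being made, largely at adenosines in a DRACH context, and ALKBH5 is a nuclear demethylase that removes it. Malat1 is a well-studied m6A-modified RNA.

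The unit of all values is the deposited signal, the reads of a row multiplied by 1 factor per library that makes the m6A-modified spike-in RNA equal in all 6. Interval reads ran from 13234793 to 15145206 per library, and the spike-in factor rested on 814 to 1870 reads. With 0 columns read as input, a change in the m6A of a transcript, in its RNA level, in RNA per cell or in gene copies cannot be told apart. The median interval of the whole table also differed between genotypes on this scale. It was lower by 0.35 on the log2 scale in KO than in WT, higher by 0.46 in ΔcIDR than in WT and higher by 0.79 in ΔcIDR than in KO. Each Malat1 and Neat1 value is therefore set against these shifts, and "centred" below means that each library was first aligned on its median tested interval.

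Malat1 carried the strongest m6A interval of the table. The interval at chr19:5851020-5852658 spans 1638 bp towards the start of the gene and ranked 1 of 74299 by mean signal and 3 by mean signal per kb. It ranked 1 in both WT and both ΔcIDR libraries and 2 in both KO libraries. Its signal was 26730 and 33575 in WT, 16074 and 12213 in the KO, and 47075 and 39822 in ΔcIDR. The groups did not overlap on the deposited scale: both KO libraries were the lowest and both ΔcIDR libraries the highest.

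The second Malat1 interval, chr19:5848812-5849294, spans 482 bp and ranked 5 by mean signal. It gave 4859 and 4716 in WT, 3378 and 2310 in the KO, and 6095 and 6378 in ΔcIDR, with the same order of groups. Per library, its signal was 0.182 and 0.140 of that of the stronger interval in WT, 0.210 and 0.189 in the KO, and 0.129 and 0.160 in ΔcIDR. The KO ratios were above both other genotypes, while the WT and ΔcIDR ratios overlapped.

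Neat1 had its intervals at the end of the window where transcription starts, and at a much lower level. The interval at chr19:5893247-5894259, 1012 bp long, ranked 55 and gave 1367 and 1524 in WT, 1059 and 746.9 in the KO, and 1664 and 1617 in ΔcIDR. The interval at chr19:5895285-5895565, 280 bp long and nearest to the transcription start, ranked 415. It gave 438.9 and 557 in WT, 373 and 265.5 in the KO, and 687.4 and 589.7 in ΔcIDR. Both Neat1 intervals had KO lowest and ΔcIDR highest with no overlap of groups. The ratio of the weaker to the stronger Neat1 interval was 0.321 and 0.365 in WT, 0.352 and 0.355 in the KO, and 0.413 and 0.365 in ΔcIDR, and the WT values overlapped those of both mutants.

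**Figure D1:**
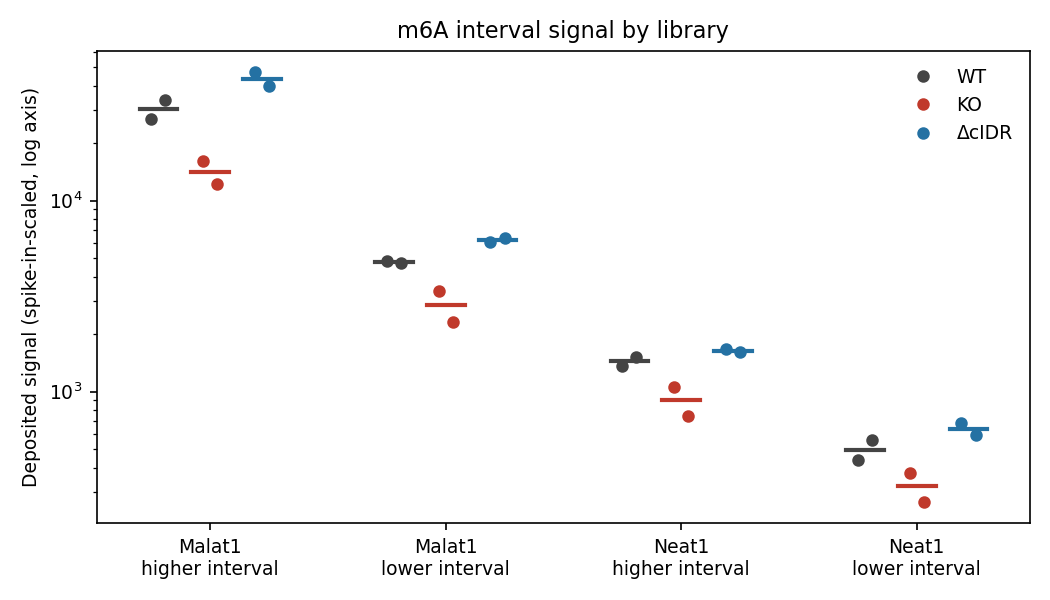
Deposited signal (spike-in-scaled, log axis) of the 4 m6A intervals, with 1 point per library and a bar at each group mean of 2 libraries. At every interval both KO points lie below both WT points and both ΔcIDR points lie above them, and the stronger Malat1 interval runs from 12213 to 47075.

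Summed over its 2 intervals, Malat1 had a signal of 31590 and 38292 in WT, 19452 and 14523 in the KO, and 53171 and 46200 in ΔcIDR. Per kb of interval the group means were 16481 ± 2235 in WT, 8013 ± 1644 in KO and 23437 ± 2325 in ΔcIDR (SD, n = 2 each). The Neat1 sums were 1806 and 2081 in WT, 1432 and 1012 in the KO, and 2351 and 2206 in ΔcIDR. Its per kb means were 1504 ± 150.6 in WT, 945.9 ± 229.6 in KO and 1764 ± 79.3 in ΔcIDR (SD, n = 2 each). In both genes the genotypes stood in the order KO, WT, ΔcIDR on the deposited scale, and Malat1 was above Neat1 per kb in every library.

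Malat1 signal fell in the Alkbh5 knockout, by more than the median interval did. The stronger Malat1 interval fell by 1.10 ± 0.34 on the log2 scale (SE) in KO against WT, with an adjusted p of 0.0201 by limma. With each library centred it fell by 0.78 ± 0.18, with a limma adjusted p of 0.0133, and it was the only 1 of the 4 intervals called, where 7.3% of all tested intervals were called lower. The summed Malat1 signal fell by 1.05 ± 0.35 (limma adjusted p = 0.029), a KO mean 0.486 times the WT mean, which is 0.70 beyond the median interval. The weaker Malat1 interval had a log2 difference of -0.78 ± 0.32 and a limma adjusted p of 0.0993, so it did not pass the threshold of 0.05. Thus 1 of the 4 intervals at these genes was called lower in KO, where 10% of all 37759 tested intervals were called lower and 0.983% higher. There were 411 other intervals with a mean signal at least that of the weakest of these 4. Their median was -0.46, and 9.49% were called lower.

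The Malat1 call between KO and WT rested on both WT libraries. Without WT replicate 1 the summed log2 difference was -1.19 with a limma adjusted p of 0.141, and without WT replicate 2 it was -0.91 with a limma adjusted p of 0.458. The call was also lost when no filter on low signal was applied, where the log2 difference stayed at -1.05 and its SE rose to 2.24 (limma adjusted p = 0.894), and on the scale of the unmodified spike-in, where it was -0.83.

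The Neat1 differences between KO and WT were smaller, and no Neat1 interval passed the test. Its log2 differences were -0.70 ± 0.31 at the stronger interval (limma adjusted p = 0.131) and -0.65 ± 0.31 at the weaker one (limma adjusted p = 0.16). The summed Neat1 difference was -0.69 ± 0.31 (limma adjusted p = 0.142), which is 0.33 below the median interval. The median of the 411 other intervals of at least the weakest member's signal was -0.46. All 4 intervals had both KO libraries below both WT libraries, as did 43.8% of all tested intervals. Leaving out 1 library moved the Neat1 sum in both directions. Without KO replicate 1 it differed by -0.94 (limma adjusted p = 0.00217) and all 4 intervals were called lower, but 28.1% of all intervals were then called lower and their median was -0.58. It differed by -0.44 without KO replicate 2 (limma adjusted p = 0.155) and by -0.58 without WT replicate 2 (limma adjusted p = 0.727).

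Deletion of the cIDR did not give a called difference from WT at either gene. The Malat1 summed signal differed by 0.51 ± 0.35 (limma adjusted p = 0.32), close to the shift of the median interval, and it was below WT on the ERCC spike-in (-0.15) and unmodified spike-in (-0.67) scales. The median interval was at -0.15 and -0.65 on those scales, so Malat1 stayed close to it. The median of the 411 other intervals of at least the weakest member's signal was 0.65 as deposited, above the Malat1 difference, and 0 of them were called. After centring, the Malat1 difference was 0.11 ± 0.19 (limma adjusted p = 0.818). Neat1 summed signal differed by 0.23 ± 0.31 as deposited (limma adjusted p = 0.642) and by -0.17 ± 0.14 after centring (limma adjusted p = 0.595), so its direction turned with the scale, as it also did on the ERCC scale (-0.42). It lay below the median interval on each of these scales, which was at 0.46, 0.06 and -0.15. By limma, 0 of the 4 intervals were called and 0 had an unadjusted p under 0.05, and edgeR's quasi-likelihood test on the same scale called 0, while 1.03% of all tested intervals were called higher and 0.0874% lower. In all 4 intervals both ΔcIDR libraries were above both WT libraries, as in 58.7% of tested intervals.

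This comparison shared its estimate of spread with the KO libraries, and the SE of the Malat1 sum fell from 0.35 to 0.15 without either KO library. Fitted without KO replicate 1, without KO replicate 2 or with the 2 genotypes alone, the Malat1 difference of 0.51 passed the test (limma adjusted p = 0.0258, 0.0261 and 0.025) and 2 of the 4 intervals were called higher. In these fits 26.7%, 26.6% and 26.6% of all intervals were called higher, with medians of 0.46, so the Malat1 difference stayed close to that of the median interval.

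The 2 mutants differed from each other at both genes on the deposited scale. Malat1 summed signal was higher in ΔcIDR than in KO by 1.56 ± 0.35 on the log2 scale (limma adjusted p = 6.26e-05), 2.92 times the KO mean, and the stronger interval was higher by 1.63 ± 0.34 (limma adjusted p = 2.57e-05). Neat1 summed signal was higher by 0.92 ± 0.31 (limma adjusted p = 0.00993), 1.86 times the KO mean, but its difference was below 0 on the ERCC (-0.14) and unmodified spike-in (-0.48) scales. The median interval was also below 0 on those scales, at -0.20 and -0.51. All 4 intervals were called higher in ΔcIDR, against 47.3% of all tested intervals called higher and 1.57% lower, and all 4 had groups that did not overlap, as did 67.6% of tested intervals. Of the 411 other intervals whose mean signal was at least that of the weakest of these 4, 88.6% were called higher, with a median of 1.13, so a call was the rule at this level and the Neat1 difference lay below that median. After centring, Malat1 was higher by 0.84 ± 0.19 (limma adjusted p = 0.004), and 1 of the 4 intervals, the stronger Malat1 one, was called where 17.6% of tested intervals were called higher. On the ERCC scale the Malat1 difference was 0.50 (limma adjusted p = 0.022), and it was not called on the unmodified spike-in scale, at 0.16 (limma adjusted p = 0.968), or with no filter on low signal (limma adjusted p = 0.725). The centred Neat1 difference was 0.20 ± 0.14 (limma adjusted p = 0.313). Without ΔcIDR replicate 1 or 2 the Neat1 difference of 0.87 or 0.97 was not called (limma adjusted p = 0.15 and 0.0972), and 2 of the 4 intervals were, where 21.5% and 28.2% of all intervals were called higher.

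**Figure D2:**
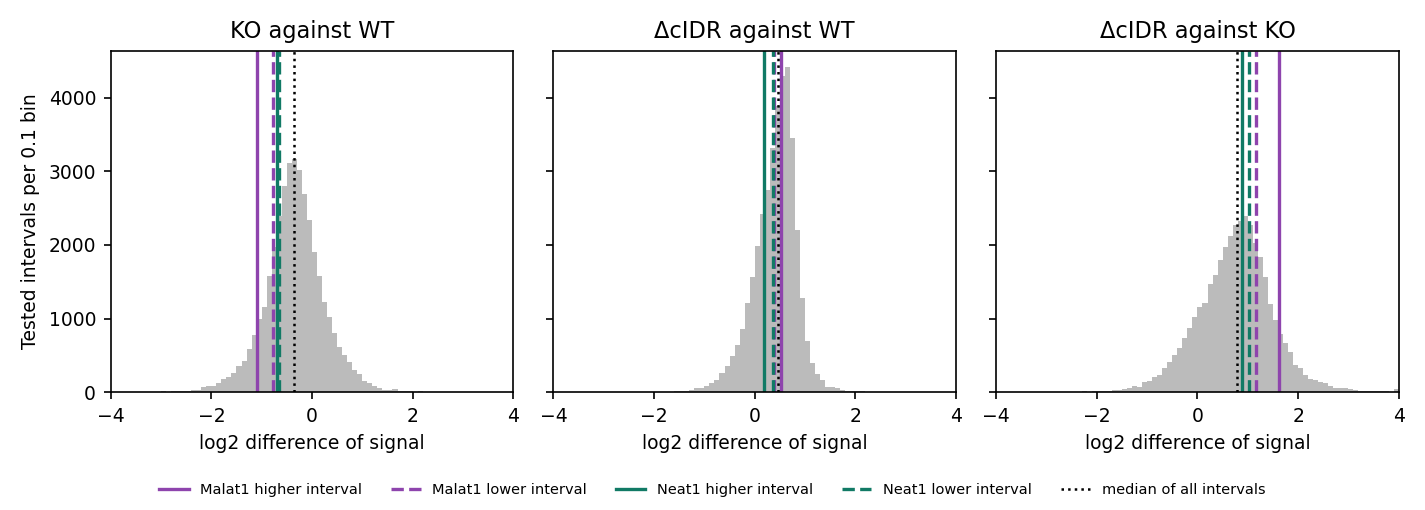
Histograms of the log2 difference of signal over the 37759 tested intervals for each of the 3 comparisons, with values beyond 4 in the outer bins, the 4 Malat1 and Neat1 intervals as coloured lines and the median of all intervals as a dotted line. In KO against WT the stronger Malat1 interval lies at -1.10, left of the median at -0.35, and in ΔcIDR against KO it lies at 1.63, right of the median at 0.79.

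The same values as a share of each library's interval reads do not use the spike-in. Malat1 took 2.05% and 2.32% of interval reads in WT, 1.34% and 1.46% in the KO, and 2.19% and 1.90% in ΔcIDR. The Wilson 95% intervals were at most 0.00806 percentage points to either side and cover counting error only. The KO shares were below the other 4, and the ΔcIDR shares overlapped those of WT. Neat1 took 0.117% and 0.126% in WT, 0.0988% and 0.102% in the KO, and 0.0968% and 0.0907% in ΔcIDR, with Wilson intervals of at most 0.0019 points to either side. For Neat1 the ΔcIDR shares were thus the lowest, whereas its deposited signal was highest in ΔcIDR.

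The balance between the genes moved in opposite directions in the 2 mutants. The Neat1 sum divided by the Malat1 sum, a ratio within a library that no scaling changes, was 0.0572 and 0.0543 in WT, 0.0736 and 0.0697 in the KO, and 0.0442 and 0.0478 in ΔcIDR. No 2 genotypes overlapped. On the log2 scale the ratio was higher in KO than in WT by 0.36 ± 0.05 (SE, n = 2 each), and ΔcIDR minus WT was -0.28 ± 0.07. With 2 libraries against 2, an exact two-sided permutation test cannot give a p below 1 in 3, so none is given for ratios. Because both differences use the same WT libraries, their opposite signs are not independent of each other, and ΔcIDR minus KO was -0.64 ± 0.07.

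**Figure D3:**
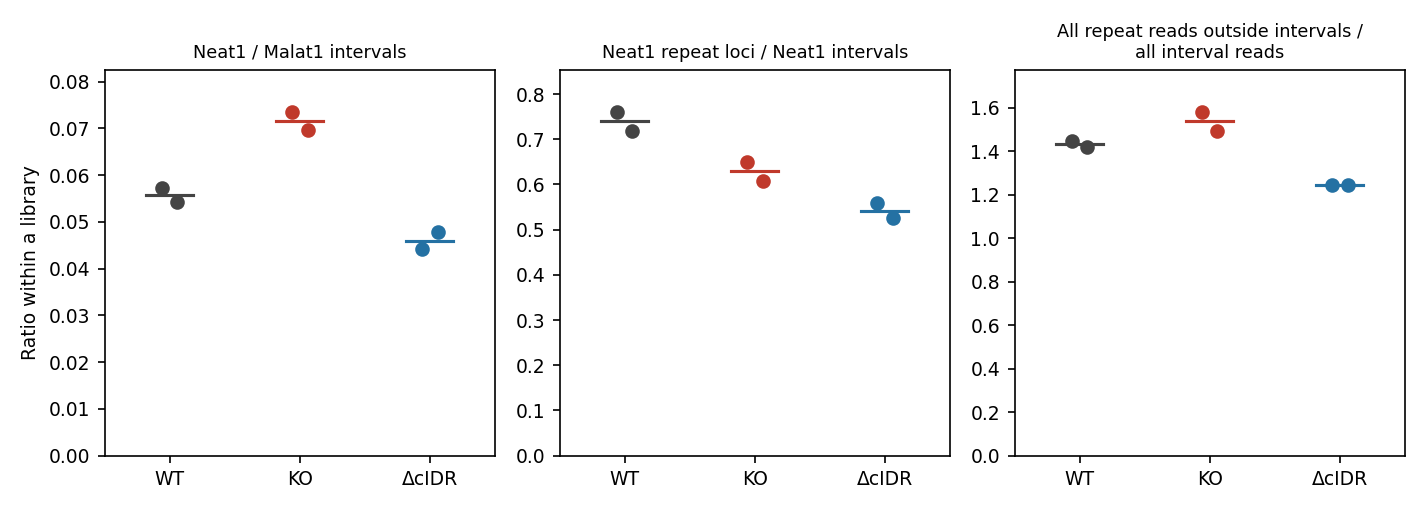
Ratios within a library, with 1 point per library and a bar at each group mean. From left to right they are the Neat1 sum over the Malat1 sum, reads on Neat1 repeat loci over reads on the Neat1 intervals, and, for the whole table, repeat reads outside intervals over interval reads. The Neat1 to Malat1 ratio has no overlap between genotypes, from 0.0442 in ΔcIDR to 0.0736 in KO.

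The intervals around these genes had low signal. Within 100 kb of the windows lay 23 other intervals, none of them between Malat1 and Neat1, and the highest had a mean signal of 124, against which the stronger Malat1 interval was 236-fold higher. Of these neighbours 17 were tested, and their median log2 difference was -0.14 in KO against WT, 0.50 in ΔcIDR against WT and 0.78 in ΔcIDR against KO. The neighbours ran from -1.18 to 0.28 in KO against WT, a range that takes in the Malat1 difference of -1.05. Its lower end came from a single interval of low signal, chr19:5967862-5968064, with 3.03 and 3.45 in WT and 1.48 and 0.875 in the KO. Over the 962 tested intervals of chromosome 19 the medians were -0.39, 0.54 and 0.90, and no test was made of Malat1 against either set.

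Repeat loci gave a second set of values inside both genes, at Neat1 in stretches without an m6A interval. This table counts reads on annotated repeats, and its scale is 19.9 times that of the intervals, so its values are not set against interval values. All 3 Malat1 loci overlapped the stronger interval. An Alu-family SINE and an ERVL element lay inside it, and they repeat its signal rather than add to it. A simple repeat crossed its edge and lay mostly beyond it. The Malat1 Alu-family SINE at chr19:5851997-5852144 gave 17775 and 20949 in WT, 11283 and 8887 in the KO, and 31738 and 32945 in ΔcIDR. An ERVL element overlapping it, at chr19:5852042-5852160, gave 1795 and 2554 in WT, 1002 and 747.4 in the KO, and 3831 and 2871 in ΔcIDR, and it fell by 1.30 ± 0.31 in KO against WT (limma adjusted p = 0.00496). The simple repeat at chr19:5852651-5852692 gave 8207 and 9511 in WT, 5513 and 3907 in the KO, and 14080 and 14034 in ΔcIDR. In KO against WT the SINE (-0.95 ± 0.31) and the simple repeat (-0.93 ± 0.31) were not called (limma adjusted p = 0.0764 and 0.0807). Thus 1 of the 3 was called lower as deposited, where 1.91% of all tested loci were. After centring all 3 were called lower, where 2.13% of all tested loci were. All 3 Malat1 loci were called higher in ΔcIDR than in KO (median log2 difference 1.69), where 18.7% of the 433487 tested loci were called higher and 0.726% lower. At a minimum mean signal of 100, 37.9% of all loci were called higher, and 9 of the 26 loci of both genes. In ΔcIDR against WT 0 of the 3 were called (limma; 3 had an unadjusted p under 0.05), where 0.0694% of loci were called higher. Their median log2 difference was 0.67, against 0.31 over all tested loci, and it stayed at 0.67 without either KO library. The test shared its estimate of spread with the KO libraries, and the absence of a call depended on them. Both ΔcIDR libraries were above both WT libraries at all 3, as at 42.1% of tested loci.

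None of the 39 Neat1 loci touched an interval, and all lay further from the transcription start than the intervals, in what is here called the Neat1 body. The body thus had signal on repeats without any m6A interval in the table. The loci included 10 Alu-family SINEs, 5 B4 SINEs and 11 simple repeats. Of the 39, 4 were listed at 0 in every library and 9 in all fell below the minimum mean signal of 20, which left 30 tested. The locus with the highest mean signal was an Alu-family SINE at chr19:5878986-5879073, with 3381 and 4010 in WT, 2555 and 1689 in the KO, and 3504 and 3123 in ΔcIDR. An L1 element at chr19:5880698-5881126 gave 2635 and 3337 in WT, 1966 and 1258 in the KO, and 2424 and 2119 in ΔcIDR. At both loci KO was lowest, while at the L1 element ΔcIDR was also below WT.

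In KO, every tested locus of the Neat1 body had a log2 difference below 0. The 30 differences ran from -3.06 to -0.31 with a median of -0.86, against a median of -0.26 over all tested loci. At 25 of the 30 both KO libraries were below both WT libraries, as at 33.8% of all tested loci. By limma, 4 of 30 were called lower, against 1.91% of all loci called lower and 0.176% higher, and 12 of 30 after centring, against 2.13%. At a minimum mean signal of 100, 6 of 26 loci of both genes were called lower, where 5.11% of all loci were. A simple repeat at chr19:5882758-5882836 gave 2443 and 3234 in WT, 1323 and 841.8 in the KO, and 3091 and 2404 in ΔcIDR, and fell by 1.40 ± 0.31 in KO (limma adjusted p = 0.00154). An ID-family SINE at chr19:5888313-5888351 gave 196.8 and 218.4 in WT, 96.4 and 55.2 in the KO, and 160 and 163 in ΔcIDR, and fell by 1.38 ± 0.37 in KO (limma adjusted p = 0.019). An Alu-family SINE at chr19:5875889-5875946 gave 48.6 and 81 in WT, 17.7 and 10.2 in the KO, and 33.3 and 25.6 in ΔcIDR, and fell by 1.63 ± 0.47 in KO (limma adjusted p = 0.0313). All 3 had KO below the other genotypes without overlap. Over both genes, 5 loci were called lower in KO with all 6 libraries, where 1.91% of all loci were. Leaving out KO replicate 1 raised both the number of these genes' loci called and the share of all loci called. The median over all loci was then -0.52. Leaving out any other library lowered both, so the loss of calls was shared by the whole table. The median over the loci of both genes was -0.98 without WT replicate 1 and -0.75 without WT replicate 2, against -0.91 with all 6 libraries. The median over the Neat1 loci was -0.57 without KO replicate 2, where 29 of 31 tested loci were below 0, and -0.74 without WT replicate 2, where 29 of 30 were.

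The fourth Neat1 locus called in KO was an Alu-family SINE at chr19:5884155-5884300 whose libraries disagreed. It gave 2128 and 22.1 in WT, 47.2 and 7.26 in the KO, and 316.7 and 6.39 in ΔcIDR, from 919 and 9, 24 and 5, and 95 and 2 reads. The high mean of WT came from 1 library, and the locus was also the single Neat1 locus called in ΔcIDR against WT, in the lower direction, and 1 of those called in ΔcIDR against KO. In each of these comparisons the libraries of the 2 genotypes overlapped.

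On the deposited scale the Neat1 body of ΔcIDR lay below WT and the Neat1 intervals lay above it, while after centring both were below it (median of body loci -0.57, sum of intervals -0.17). Of the 30 body loci, 28 were below WT as deposited, with a median log2 difference of -0.27, while the median over all tested loci was 0.31 and the summed Neat1 intervals differed by 0.23. At 15 of the 30 loci both ΔcIDR libraries were below both WT libraries, as at 6.2% of all tested loci. This rested in part on single libraries: without WT replicate 2 the median was -0.11 with 19 of 30 loci below 0, and without ΔcIDR replicate 2 it was -0.096 with 23 of 30. By limma only the discordant locus was called, against 0.0173% of all loci called lower. After centring that locus was not called (limma adjusted p = 0.484), and the L1 element was the 1 locus called lower, by -0.68 (limma adjusted p = 0.025), against 0.0717% of all loci. The highest difference, 0.54, was at a B4 SINE at chr19:5880373-5880430 with low signal (13.9 and 34.3 in WT, 27.6 and 5.81 in KO, 26.7 and 51.1 in ΔcIDR), where the libraries overlapped.

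Against KO, ΔcIDR was higher at 29 of the 30 Neat1 body loci, with a median log2 difference of 0.63, near the 0.56 of all tested loci. At 22 of the 30 the libraries did not overlap, against 53.4% of all loci. By limma 5 of 30 were called higher, where 18.7% of all loci were, and 1 after centring, where 6.52% were, so neither count stood above the whole table. Without KO replicate 2 the median was 0.33. They included the simple repeat (1.36, limma adjusted p = 4.01e-04) and the ID element (1.04, limma adjusted p = 0.0337) described above. An Alu-family SINE at chr19:5891259-5891366 gave 1304 and 1288 in WT, 755.7 and 557.3 in the KO, and 1227 and 1186 in ΔcIDR, and was higher in ΔcIDR than in KO by 0.88 (limma adjusted p = 0.0338). A B4 SINE at chr19:5884432-5884570 gave 347.4 and 488.3 in WT, 251.9 and 156.7 in the KO, and 466.8 and 367.6 in ΔcIDR, and was higher by 1.02 (limma adjusted p = 0.022). The fifth was the discordant locus.

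**Figure D4:**
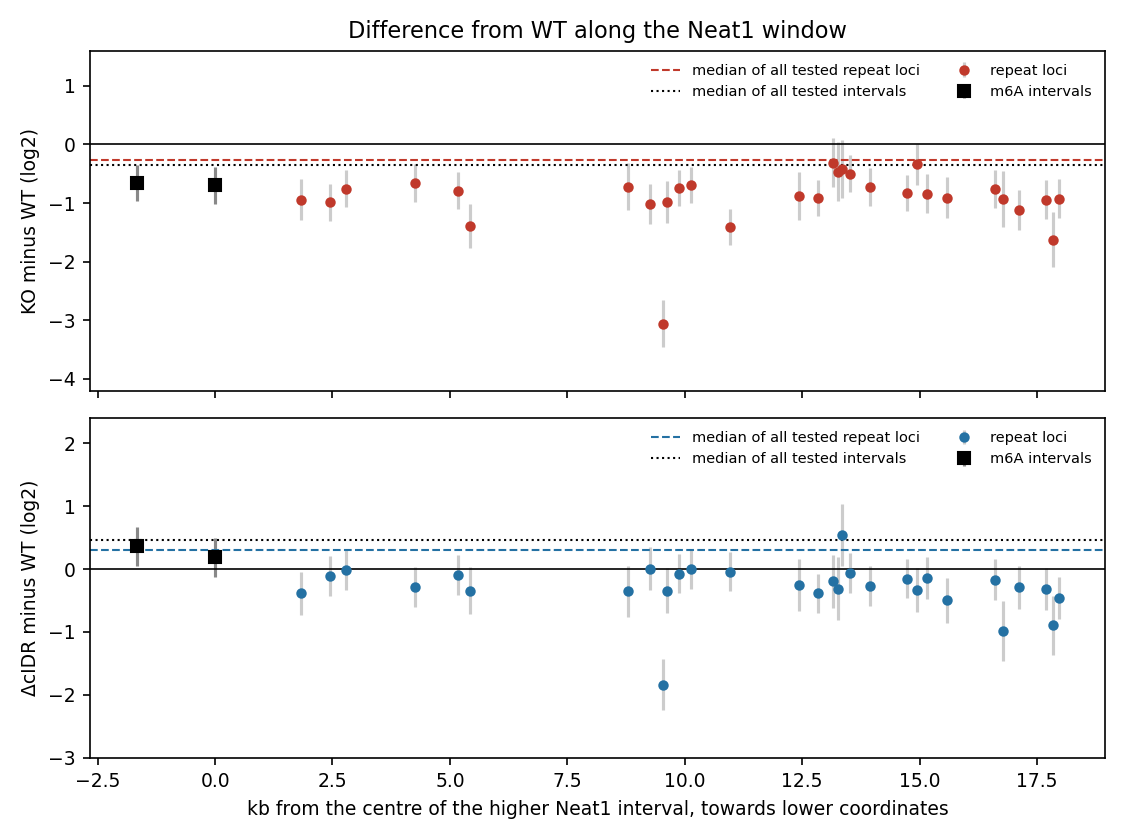
Log2 difference from WT of KO (top) and ΔcIDR (bottom) at the 30 tested Neat1 repeat loci (circles) and 2 Neat1 m6A intervals (squares), with SE bars, against distance in kb from the centre of the stronger Neat1 interval towards lower coordinates. Dashed and dotted lines mark the medians of all tested repeat loci and intervals. In KO all 30 loci lie below 0. In ΔcIDR, on the deposited scale, 28 lie below 0 while both intervals lie above it, and the lowest locus in each panel is the discordant Alu-family SINE.

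The contrast between body and start was put as a ratio of reads within each library, a comparison chosen after the values had been seen. Reads on Neat1 repeat loci divided by reads on the Neat1 intervals came to 0.761 and 0.719 in WT, 0.651 and 0.607 in the KO, and 0.558 and 0.526 in ΔcIDR. The genotypes did not overlap, and WT was highest. The log2 ratio differed by -0.24 ± 0.06 in KO and by -0.45 ± 0.06 in ΔcIDR against WT (SE, n = 2 each). Without the discordant Alu-family SINE these were -0.18 ± 0.05 and -0.40 ± 0.04. The corresponding ratio for the whole table, repeat reads outside intervals over interval reads, was 1.45 and 1.42 in WT, 1.58 and 1.50 in the KO, and 1.24 and 1.24 in ΔcIDR. Relative to that ratio, the Neat1 body was lower than in WT by 0.34 ± 0.03 (log2) in KO and by 0.24 ± 0.05 in ΔcIDR, and by 0.28 ± 0.03 and 0.19 ± 0.05 without the discordant locus. On this measure ΔcIDR minus KO was 0.09 ± 0.04, whereas it was -0.21 ± 0.07 for the Neat1 ratio alone, so the order of the mutants turned.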

How the data were processed

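Per the submitters' processing notes, the authors used GRCm39 and the tools fastp, HISAT2, SAMtools and Picard, besides MACS2, featureCounts and bedtools; versions and roles are not given in the sources used here. The 2 deposited tables hold a spike-in-scaled signal for intervals and for repeat loci. Dividing by 1 factor for each library gave whole reads for 100% of values (tolerance 1e-06). The design had foreseen this unit as a normalized signal. Columns were read as immunoprecipitated because the labels call the tables normalized m6A and repeat matrices, and KI columns were read as ΔcIDR by elimination. Whether starts count from 0 or 1 is not stated.

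Intervals were tested with limma 3.58.1 (R 4.3.3, eBayes with a trend) on log2(signal + 0.5), 1 mean per genotype over all 6 libraries, where mean signal was at least 1, after leaving out 94 spike-in rows. Gene sums were added to that fit. Repeat loci used signal plus 10 and a minimum of 20. Such folds understate changes of low rows. P-values were adjusted by Benjamini-Hochberg over all rows tested and called at 0.05. Alternatives were other pseudocounts, filters and scales, edgeR 4.0.16 on whole reads, fits of 2 groups, a replicate block, and leaving out each library. The unmodified spike-in scale and the Neat1 body ratio were added after seeing the data. Tables were read with Python 3.11.15 and pandas 2.3.3, and figures drawn with matplotlib 3.10.9.

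Values are given for every interval, for the 3 repeat loci of highest mean signal per gene and for called loci; other loci were named after their values were seen. Members and lists were chosen with earlier results of these data known. Gene lists, cell markers and a check of Alkbh5 need a GRCm39 annotation and were not used here, nor were interval sequences.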

Additional observations from a re-analysis of the deposited data

How the results depend on the processing

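Changes of scale and single left-out libraries each moved many values. For ΔcIDR against WT, summed Malat1 turned to -0.15 on the ERCC scale, -0.0067 with edgeR and TMM factors and -0.67 on the unmodified spike-in scale. The median interval was at -0.15, -0.019 and -0.65 there. Summed Neat1 turned to -0.17 when centred, -0.42 on the ERCC scale, -0.17 on the scale of repeat reads outside intervals, -0.29 with TMM factors and -0.95 on the unmodified spike-in scale, and none of these was called. For ΔcIDR against KO, Neat1 turned to -0.14 (ERCC) and -0.48 (unmodified spike-in), where the median interval was at -0.20 and -0.51. Neat1 also lost its call at 0.20 (centred), 0.21 (repeat reads outside intervals), 0.032 (TMM) and 0.92 (no filter). Malat1 lost its call there at 0.16 (unmodified spike-in) and 1.56 (no filter). For KO against WT, Malat1 lost its call at -0.83 (unmodified spike-in) and at -1.05 (no filter, and replicate block), and Neat1 gained one at -0.38 (repeat reads outside intervals) and -0.32 (TMM). Malat1 gained one in ΔcIDR against WT at 0.51 with 2 groups only. The unmodified spike-in took 1729 and 4580 reads in the WT libraries, and the causes of these changes were not tested.

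Shares in parentheses are those of all tested rows called in the same direction. Of the 4 intervals, those called lower in KO against WT numbered 0 with no filter (0%), with the replicate block (5.66%) and on the unmodified spike-in scale (0.0129%), 2 on the ERCC scale (5.67%), and 3 on the outside-repeat scale (8.84%) and with TMM (7.52%). In ΔcIDR against WT 2 were called higher with 2 groups only (26.6%). In ΔcIDR against KO, 0 were called higher with no filter (7.27%) and on the unmodified spike-in scale (0.0594%), 1 when centred (17.6%), on the ERCC scale (8.11%) and with TMM (13.9%), and 2 on the outside-repeat scale (20.4%). Centring gave 15 repeat loci called lower in KO against WT (2.13%) and 4 higher in ΔcIDR against KO (6.52%), against 5 (1.91%) and 8 (18.7%) as deposited. With the highest interval of each gene alone, the Neat1 to Malat1 ratio moved to -0.35 (ΔcIDR against WT) and -0.74 (ΔcIDR against KO).

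Leaving out each library gave Malat1 ranges of -1.26 to -0.84, 0.37 to 0.65 and 1.35 to 1.77 for KO against WT, ΔcIDR against WT and ΔcIDR against KO, and Neat1 ranges of -0.94 to -0.44, 0.13 to 0.33 and 0.67 to 1.17. Called intervals ranged from 0 to 4, 0 to 2 and 2 to 4, and called repeat loci from 0 to 26, 0 to 3 and 3 to 24. Deviations of same-numbered libraries correlated at 0.0763 (WT and KO), -0.29 (WT and ΔcIDR) and -0.15 (KO and ΔcIDR) over 37759 intervals, and whether column numbers are the labels' replicate numbers is not stated, so the numbers were not taken as pairs. The replicate block changed no call of a summed signal other than Malat1 in KO against WT, where its limma adjusted p was 0.0811. A lone library left in a group was assumed to vary like the others. The ranges of called rows take both directions together. In ΔcIDR against WT, repeat loci were called higher without either KO library, but 1 was called lower with all 6 libraries. In ΔcIDR against KO, called repeat loci and the share of all loci called higher were both highest without KO replicate 1. The median over all loci was 0.82 there, against 0.56 with all 6 libraries. Both were lowest without ΔcIDR replicate 1.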

Other observations

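The intervals whose profile over the 6 libraries was most like that of each gene were taken from 18350 candidates with a mean signal of at least 10, after centring, by the root mean square difference of log2 signal. For Malat1 they were chr4:146107130-146108257 (difference 0.0339), chr9:49625034-49625538 (0.043) and chr9:21726579-21726846 (0.0436). The first of them had a signal of 27.4 and 31.3 in WT, 16.4 and 12.3 in the KO, and 45.9 and 41 in ΔcIDR. For Neat1 they were chr2:32463296-32463531 (0.0185), chr1:133728543-133728819 (0.03) and chr2:157398457-157398835 (0.0444). The last of these had 47.3 and 56.5 in WT, 38 and 28.3 in the KO, and 60.8 and 61.4 in ΔcIDR. All 6 had far lower signal than either gene, and they are listed by likeness only.

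The 2 KO libraries held nearly the same number of Malat1 reads, 196642 and 199096, yet their Malat1 signals were 19452 and 14523. Their m6A spike-in reads, which set the factor, were 1379 and 1870.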
